A study of Canis lupus familiaris with 8 samples.

Results

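SAMHD1, SELENOP, ID3, TSPAN5 and SNX9 are 5 of the 20257 genes counted in circulating canine T cells, and they are described here across subsets of those cells. The 5 genes were put together because of their levels in these same cells, so every level in cells sorted by CD4, CD8A, CCR7, LEF1 or FOXP3 transcripts is given as a description with no test. Each symbol matched 1 row of the gene list: SAMHD1 (ENSCAFG00000008659), SELENOP (ENSCAFG00000028589), ID3 (ENSCAFG00000013269), TSPAN5 (ENSCAFG00000010287) and SNX9 (ENSCAFG00000000627). They were grouped here under the name of memory genes, which is a label and not a finding of the study. The study used SAMHD1, together with CCR7 and TCF7, to name a cluster of resting central memory CD4 cells. In CD4 single-positive cells SAMHD1, SELENOP, ID3 and TSPAN5 were lower in clones of 2 or more cells than in clones of 1, in 4 of 4 dogs. So were 14% of the 9176 genes tested. SNX9 was lower in 4 of 4 dogs too, but it had 13 UMIs in the larger clones and is not set against that share. Whether the 5 genes mark memory cells was not tested, and they are called here by their symbols.

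Blood of 4 healthy, untreated Beagle dogs was sorted for TCRαβ+ T cells (dog 1 aged 5 years and female, dogs 2 and 3 aged 7 years and male, dog 4 aged 9 years and male), and each dog gave 1 5′ single-cell transcriptome library and 1 V(D)J library of rearranged T cell receptor genes. The 4 samples had been frozen and were processed in a single run, and each dog is 1 replicate. Filters on transcript number and mitochondrial share left 7096 to 8454 cells per dog, 31909 in all, with a median of 3599 to 3931.5 UMIs per cell (a UMI, or unique molecular identifier, marks 1 captured transcript). Pairs of libraries shared 87 to 120 cell barcodes, 1.17% to 1.43% of the smaller library. Dog 1 was deposited with a gene list longer than its count matrix (27980 lines), so the list of dog 2 was used for its rows. Of 5 T cell markers, 4 were in the gene list, and CD3E had a UMI in 94.4% to 96.0% of cells and CD3D, CD3G and CD5 in 63.6% to 79.5%, depending on the gene and dog. With the list of dog 2 the log totals of the genes correlated with those of the other 3 dogs at r = 0.976 to 0.981, a correlation across genes, which are not independent replicates. Levels (CPM) are the UMIs of a gene per 1000000 UMIs summed over the cells of a class in 1 dog. In such sums, fewer cells with the transcript and fewer transcripts per cell cannot be told apart.

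SAMHD1 is an enzyme that breaks down deoxynucleotide triphosphates, the building blocks of DNA, and it restricts retroviruses in resting cells by keeping that pool low. SELENOP is a secreted selenoprotein that carries selenium between tissues. ID3 binds E proteins, transcription factors that guide T cell development, and keeps them off DNA. TSPAN5 is a membrane protein of the tetraspanin family that partners the protease ADAM10, and SNX9 is a sorting nexin that joins membrane bending to actin during endocytosis. A naive T cell has not met its antigen and usually has a receptor that few other cells share, whereas antigen drives division and leaves clones of cells with the same receptor. CCR7, a chemokine receptor for entry into lymph nodes, and LEF1, a transcription factor, are widely used to mark naive and central memory T cells.

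All 5 genes were higher in CD4 single-positive cells (at least 1 UMI of CD4 and none of CD8A) than in CD8A single-positive cells (the reverse) in 4 of 4 dogs, with no overlap between the groups. Of the 10156 genes with a mean of at least 1 CPM, 21.9% were higher in 4 of 4 dogs and 8.71% had no overlap. Since the genes were chosen on such levels, nothing further is read from it. The CD4 cells numbered 2716 to 3658 per dog and the CD8A cells 691 to 2280.

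SAMHD1 was at 40.7, 71.9, 44.9 and 63.4 CPM in the CD4 cells of dogs 1 to 4 and at 4.24, 15.4, 5.80 and 12.4 CPM in their CD8A cells. Dogs 2 and 4 were the higher 2 in either lineage. SELENOP was at 21.5, 20.5, 21.2 and 32.4 CPM in CD4 cells and at 1.71 to 2.24 CPM in CD8A cells. Dog 4 stood above the other 3 in CD4 cells, and the 4 dogs were close in CD8A cells. ID3 was at 123, 120, 112 and 80.7 CPM in CD4 cells and at 21.4 to 36.8 CPM in CD8A cells, with dog 4 lowest in either lineage. TSPAN5 was at 70.8, 51.7, 62.9 and 35.6 CPM in CD4 cells and at 10.6 to 18.8 CPM in CD8A cells, again with dog 4 lowest. SNX9 was at 33.3, 14.6, 13.9 and 7.67 CPM in CD4 cells and at 0.994 to 3.89 CPM in CD8A cells, and dog 1 was highest in either lineage. On the log2(CPM + 1) scale the difference between CD4 and CD8A cells was 2.54 ± 0.40 (SD, n = 4) for SAMHD1, 3.05 ± 0.23 for SELENOP, 1.91 ± 0.19 for ID3, 1.73 ± 0.25 for TSPAN5 and 2.52 ± 0.30 for SNX9.

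Cells with no UMI of either CD4 or CD8A (2658 to 3187 per dog) and cells with UMIs of both (89 to 252 per dog) were placed between these lineages for 4 of the 5 genes. For SAMHD1 the order of the mean levels was CD4 cells, 55.2 ± 14.8 CPM (SD, n = 4), cells with neither transcript, 43.1 ± 18.6, cells with both, 34.0 ± 17.0, and CD8A cells, 9.46 ± 5.30. The first 3 classes overlapped between dogs, although CD4 cells were above cells with neither and cells with both within each of the 4 dogs. All 5 members were higher in CD4 cells than in cells with both in 4 of 4 dogs, as were 11.2% of 10115 genes. SELENOP was at 23.9 ± 5.67 CPM in CD4 cells, 13.5 ± 8.43 with both, 11 ± 3.19 with neither and 1.97 ± 0.254 in CD8A cells, where the middle 2 classes overlapped. TSPAN5 followed SAMHD1 in order, with 55.3 ± 15.3, 45.8 ± 10.2, 32.5 ± 10.5 and 15.8 ± 3.6 CPM. SNX9 had the same order, with 17.4 ± 11.1, 13.6 ± 10.1, 7.34 ± 6.52 and 2.01 ± 1.29 CPM, and its dogs differed by more than most of the classes did. ID3 was highest in cells with neither transcript, at 124 ± 18.5 CPM against 109 ± 19.4 in CD4 cells, and was higher there than in CD4 cells in 4 of 4 dogs although the ranges overlapped. Of 10083 genes, 15.9% were higher in cells with neither transcript than in CD4 cells in 4 of 4 dogs and 9.82% were lower, as the other 4 members were. Cells with UMIs of both had a median of 5418 to 5955 UMIs, more than any of the other 3 classes (3232 to 4091.5), and the part of doublets in that class was not tested.

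**Figure D1:**
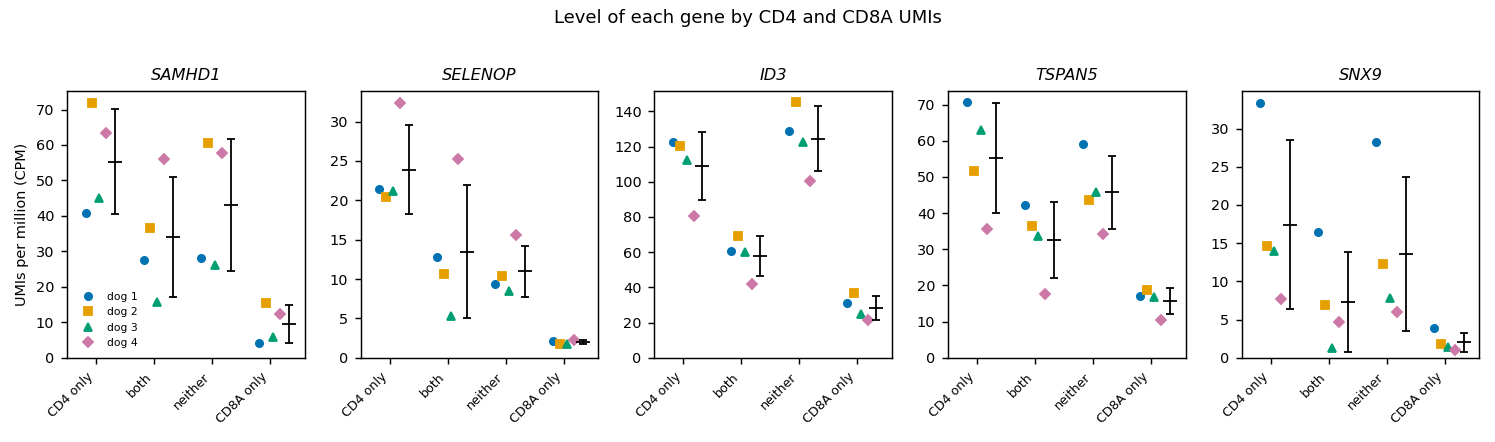
Levels of the 5 genes (vertical axes, CPM from 0) in cells with UMIs of CD4 only, of both, of neither and of CD8A only. Each coloured symbol is 1 dog, and the black bar is the mean ± SD of 4 dogs. The CD8A only class is the lowest for every gene, and ID3 alone is highest in cells with neither transcript.

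Thinning each cell to 2000 UMIs, which left out shallower cells, gave the share of cells with at least 1 UMI at equal depth. The CD4 and CD8A classes were drawn again on the thinned counts, so they are not the same cells as the classes without thinning. In 1731 to 2364 CD4 cells per dog the share was 9.99% to 16.7% for ID3, 7.30% to 13.5% for TSPAN5, 6.35% to 12.5% for SAMHD1, 3.64% to 6.34% for SELENOP and 1.42% to 6.81% for SNX9. In 600 to 1910 CD8A cells per dog it was 2.72% to 5.19%, 2.02% to 3.04%, 0.833% to 2.08%, 0.260% to 0.463% and 0.0578% to 0.667% in the same order. Without thinning, the CD4 shares were 19.5% to 26.3%, 12.6% to 22.8%, 12.6% to 21.7%, 6.62% to 10.4% and 2.74% to 10.9%. Most CD4 cells therefore had no UMI of any given member at this depth.

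The share of thinned CD4 cells with a SAMHD1 UMI was higher among those with a SELENOP UMI in 4 of 4 dogs, as was that of 5.13% of 10007 genes. Of the cells with a SELENOP UMI (63 to 125 per dog), 14.4%, 21.0%, 17.5% and 23.2% in dogs 1 to 4 also had a SAMHD1 UMI, against 6.0%, 12.2%, 7.37% and 10.0% of the cells without. ID3 also had a higher share in SELENOP cells in 4 of 4 dogs, from 16.8% to 25.4% against 9.53% to 16.4%. TSPAN5 showed no such pattern with SELENOP. Its share was 12.4%, 7.41%, 22.2% and 8.0% with a SELENOP UMI and 12.6%, 9.84%, 13.2% and 7.26% without, so that the direction changed between dogs.

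Within CD4 cells, ID3, TSPAN5 and SNX9 were higher in cells with a CCR7 UMI than in cells without in 4 of 4 dogs, as were 14.9% of the 10061 genes with a mean of at least 1 CPM. The mean log2 difference was 0.59 ± 0.23 (SD, n = 4) for ID3, 0.57 ± 0.32 for TSPAN5 and 0.63 ± 0.40 for SNX9. SAMHD1 and SELENOP were higher with CCR7 in 3 of 4 dogs. SAMHD1 was at 38.2, 86.3, 54.0 and 87.8 CPM with CCR7 and at 43.2, 61.1, 37.4 and 53.7 CPM without it, and dog 1 was the exception for each of the pair. For LEF1 the log2 differences were 0.53 ± 0.40 for SAMHD1 (3 of 4 dogs), 0.59 ± 0.38 for SELENOP, 0.65 ± 0.17 for ID3, 0.79 ± 0.40 for TSPAN5 and 1.07 ± 0.32 for SNX9 (4 of 4 dogs each, as for 14.4% of 10062 genes).

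When CCR7 and LEF1 were combined, the low level lay in the CD4 cells that had neither. ID3 was at 73.0, 74.0, 65.3 and 50.2 CPM in those cells and at 90.0 to 159 CPM in the other 3 subsets. SELENOP was at 16.6, 11.4, 10.9 and 16.5 CPM with neither and at 19.9 to 48.0 CPM elsewhere, so the ranges of ID3 and SELENOP did not overlap with those of the other subsets. Of 10059 genes, 0.517% were lower in cells with neither with no overlap, and since the genes were chosen on such levels nothing is read from it. TSPAN5 was at 50.8, 25.0, 29.4 and 23.1 CPM with neither and at 72.2, 70.2, 90.9 and 50.2 CPM with both. SNX9 was at 21.6, 6.60, 7.00 and 2.38 CPM with neither and at 35.5, 22.8, 21.0 and 10.7 CPM with both. SAMHD1 differed between dogs. It was at 49.6, 22.7 and 47.4 CPM with neither and at 89.3, 55.3 and 103 CPM with both in dogs 2, 3 and 4, whereas dog 1 had 40.3 CPM with neither and 37.5 CPM with both.

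In CD8A cells, too, the mean levels of ID3, TSPAN5 and SNX9 were higher in cells with both CCR7 and LEF1 than in cells with neither. ID3 was at 9.38, 17.5, 11.9 and 10.9 CPM with neither transcript and at 81.4, 98.7, 56.8 and 97.6 CPM with both, and TSPAN5 was at 3.31 to 9.01 CPM with neither and at 56.8 to 82.3 CPM with both. The 54 to 211 CD8A cells per dog with both transcripts thus had levels of ID3 and of TSPAN5 that overlapped those of all CD4 cells (80.7 to 123 and 35.6 to 70.8 CPM). SNX9 rested on 42 UMIs in all CD8A cells together, 22 of them in the cells with both transcripts. SAMHD1 was at 0, 28.4, 7.97 and 18.3 CPM in cells with both and at 5.52, 11.7, 4.94 and 9.21 CPM in cells with neither, which overlapped. SELENOP had 50 UMIs in all CD8A cells, and its levels in these subsets are plotted but not read.

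**Figure D2:**
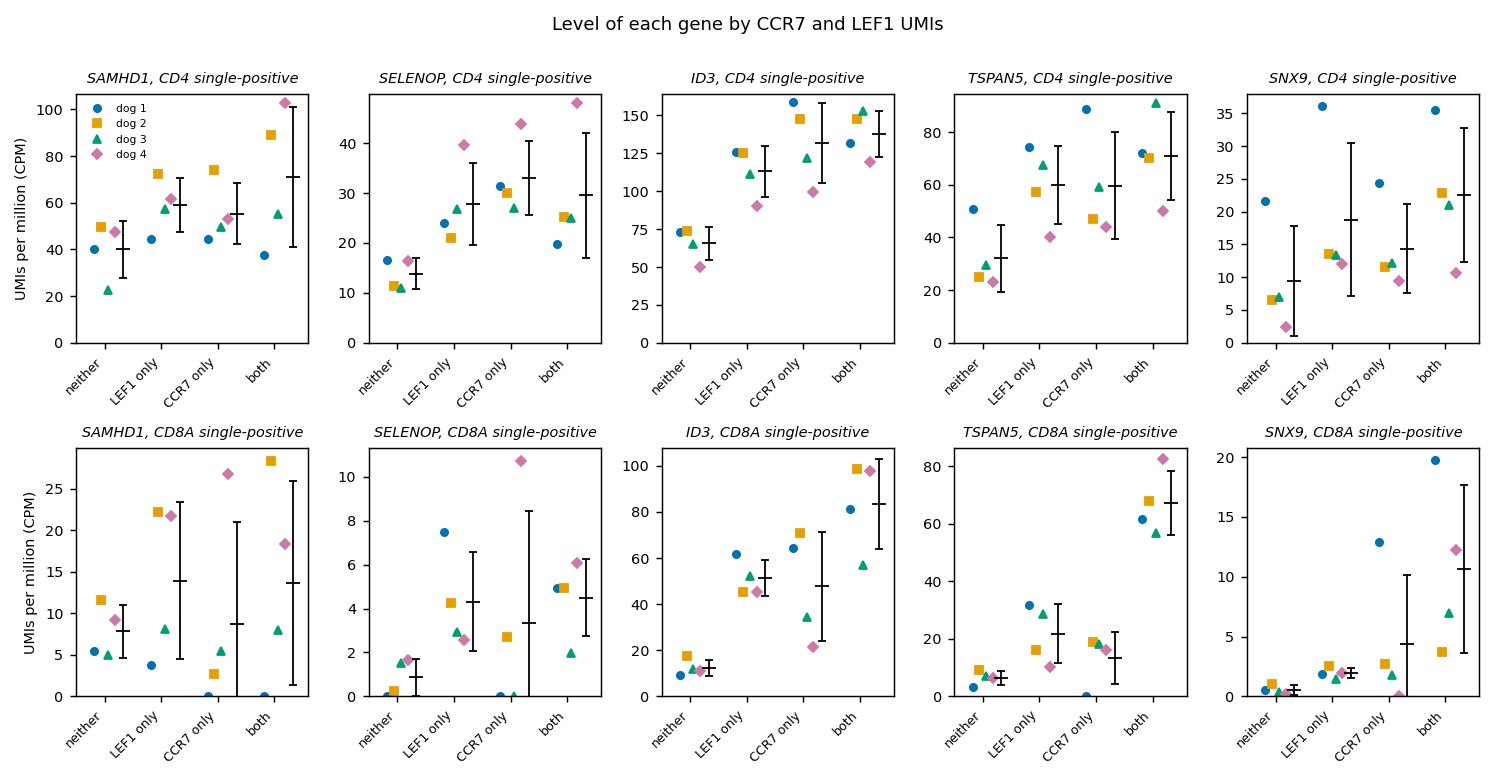
Levels of the 5 genes (CPM, axes from 0 and set per panel) in CD4 single-positive cells (top) and CD8A single-positive cells (bottom) with UMIs of neither CCR7 nor LEF1, of LEF1 only, of CCR7 only or of both. Symbols are dogs, black bars mean ± SD of 4 dogs. ID3 in CD4 cells was at 50.2 to 74.0 CPM with neither and at 90.0 CPM or more in every other subset, while SAMHD1 of dog 1 stayed between 37.5 and 44.3 CPM in all 4 CD4 subsets.

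FOXP3, the transcription factor of regulatory T cells, was found in 97 to 192 CD4 cells per dog. SELENOP was at 11.7, 12.2, 4.07 and 25.3 CPM in these cells and at 21.9, 21.1, 22.8 and 32.8 CPM in CD4 cells without FOXP3, lower in 4 of 4 dogs, as were 17.1% of 10065 genes. The FOXP3 cells held 42 SELENOP UMIs in all. SNX9 was lower with FOXP3 in 4 of 4 dogs too, by a mean log2 difference of -0.51 ± 0.42. SAMHD1 (0.19 ± 0.54), ID3 (0.19 ± 0.35) and TSPAN5 (-0.20 ± 0.37) differed in direction between dogs.

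CD4 cells were also split by a UMI of other genes (gate genes), and differences between members were not tested. SAMHD1 was higher in 4 of 4 dogs in cells with a UMI of PDCD1, an inhibitory receptor (log2 difference 0.60 ± 0.20, a direction shared by 16.5% of 10086 genes), and of CCR4, a chemokine receptor (0.54 ± 0.24, 17.4% of 10106 genes). ID3 was at -0.08 ± 0.20 and -0.15 ± 0.26 and SELENOP at -0.05 ± 0.72 and -0.86 ± 0.81 in the same cells, and the SD of each but the last was larger than the size of its mean. With a UMI of KLRK1, the NKG2D receptor of cytotoxic cells, SAMHD1 (-1.46 ± 0.67), ID3 (-1.32 ± 0.25), TSPAN5 (-1.30 ± 0.76) and SNX9 (-1.88 ± 0.65) were lower in 4 of 4 dogs and SELENOP (-1.0 ± 1.22) in 3 of 4, and 15.9% of 10028 genes were lower in 4 of 4. Those cells numbered 26 in dog 1 and 348 to 401 in the other dogs. With CXCR3, a receptor of inflammatory T cells, ID3 (-0.91 ± 0.15), TSPAN5 (-0.71 ± 0.19) and SNX9 (-1.20 ± 0.41) were lower in 4 of 4 dogs, but SAMHD1 (-0.20 ± 0.54) and SELENOP (-0.11 ± 0.34) in 3 of 4, and 16.5% of 10056 genes were lower in 4 of 4.

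**Figure D3:**
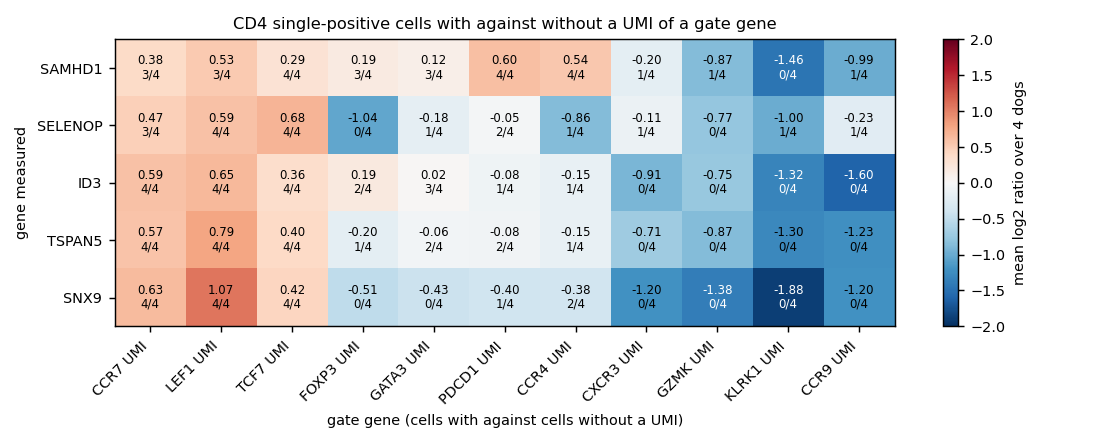
Mean log2 ratio over 4 dogs, on the log2(CPM + 1) scale, of each gene (rows) in CD4 single-positive cells with against without a UMI of each gate gene (columns), with the number of dogs in which the gene was higher printed below. Red is higher with the gate gene and blue lower. PDCD1 and CCR4 are red for SAMHD1 only (0.60 and 0.54), and KLRK1 is blue for all 5 genes (-1.0 to -1.88).

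The profiles of the members over 8 subsets (CD4 or CD8A, with or without CCR7, with or without LEF1) in 4 dogs were compared with those of 5479 genes, as a description over 32 sums that share libraries and dogs. SAMHD1 and SELENOP were the most alike pair of members (Pearson r = 0.916), and the other pairs ranged from 0.672 to 0.858. The 3 genes most like SAMHD1 were IL4R (r = 0.918), the receptor of interleukin 4, MAN2A1 (0.916), a mannosidase of the Golgi, and LDHB (0.898), a lactate dehydrogenase subunit. For SELENOP they were MAN2A1 (0.915), NINJ1 (0.912), which acts in plasma membrane rupture, and ZC3H12D (0.906). ID3 was most like the kinase MAP3K1 (0.930), the unnamed gene ENSCAFG00000014028 (0.920) and PLAC8 (0.917). TSPAN5 was most like PLAC8 (0.917), TMEM154 (0.916) and TXNDC11 (0.910), and SNX9 most like KIAA0930 (0.936), the nuclear body gene SP110 (0.907) and the interleukin 21 receptor IL21R (0.906).

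The size of a T cell clone comes from the V(D)J libraries, which were not used to choose the genes. Their levels by CCR7 and LEF1 in these same cells were used, and both transcripts were lower in larger clones. Clone size is thus not independent of that choice. A clone was the set of cells of 1 dog with the same single TRA and single TRB rearrangement (V gene, J gene and junction). CD4 cells fell into 966 to 1788 cells per dog in clones of 1 and 66, 556, 355 and 924 cells in clones of 2 or more. SAMHD1, ID3 and TSPAN5 were lower in the clones of 2 or more by edgeR's quasi-likelihood test on sums per dog, and 2.83% of the 9176 genes tested were called lower. SNX9 was called too, but it reached the filter on low counts in 4 dogs only in clones of 1 (in 1 dog in larger clones), so its call is not counted with the others. With no filter on low counts SAMHD1, ID3 and TSPAN5 passed again and SELENOP did not, where 2.41% of 13558 genes were called lower. SNX9 passed there too, from 13 UMIs in larger clones, and is again not counted. Genes below the filter are part of that share, so no count of members is set against it. SAMHD1, SELENOP, ID3 and TSPAN5 were lower in 4 of 4 dogs (14% of the genes tested) with no overlap between the groups (5.24%). SNX9 was too, but it is not set against these shares because of how it reached the filter.

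SAMHD1 was at 41.9, 96.3, 57.9 and 88.2 CPM in clones of 1 and at 33.9, 25.5, 12.4 and 30.2 CPM in clones of 2 or more. Dog 1 had the smallest step, and its 66 expanded cells the fewest UMIs. The log2 fold change was -1.55 (SE 0.29, 95% interval -2.19 to -0.91, adjusted p = 0.0127). TSPAN5 was at 71.4, 62.1, 72.9 and 58.0 CPM against 16.9, 23.6, 17.7 and 14.4 CPM, with the 4 dogs close in either class. Its log2 fold change was -1.90 (SE 0.16, 95% interval -2.26 to -1.54, adjusted p = 0.000409). SNX9 was at 31.0, 21.1, 16 and 11.9 CPM against 6.77, 1.11, 2.36 and 0.974 CPM, where the expanded class held 13 UMIs in all. It was lower in 4 of 4 dogs, and no size of the change beyond these levels is read from 2 to 4 UMIs per dog. With no filter on low counts its adjusted p was 0.000169 by edgeR.

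ID3 was at 118, 149, 140 and 113 CPM in clones of 1 and at 98.2, 50.9, 54.3 and 43.3 CPM in clones of 2 or more, and dog 1 again had the smallest step. Its log2 fold change was -1.33 (SE 0.18, 95% interval -1.72 to -0.94, adjusted p = 0.00326). SELENOP was at 22.4, 23.3, 28.2 and 47.6 CPM against 13.5, 21.8, 7.68 and 18.3 CPM, and dog 2 hardly differed. Its log2 fold change of -0.88 (SE 0.29, 95% interval -1.53 to -0.24) did not pass (adjusted p = 0.102 by edgeR), but it passed with the dog as a block (-1.02, adjusted p = 0.00484). The block raised the number of genes called from 528 to 1220, or 6.42% of the genes tested called lower and 6.88% higher. Without dog 2 only TSPAN5 of the 5 members still passed (adjusted p = 0.124 for SAMHD1, 0.0692 for ID3 and 0.0617 for SNX9, with 9 genes called in all), and without dog 3 SAMHD1 did not (0.0544, with 113 genes called). These are edgeR values with Benjamini-Hochberg adjustment.

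**Figure D4:**
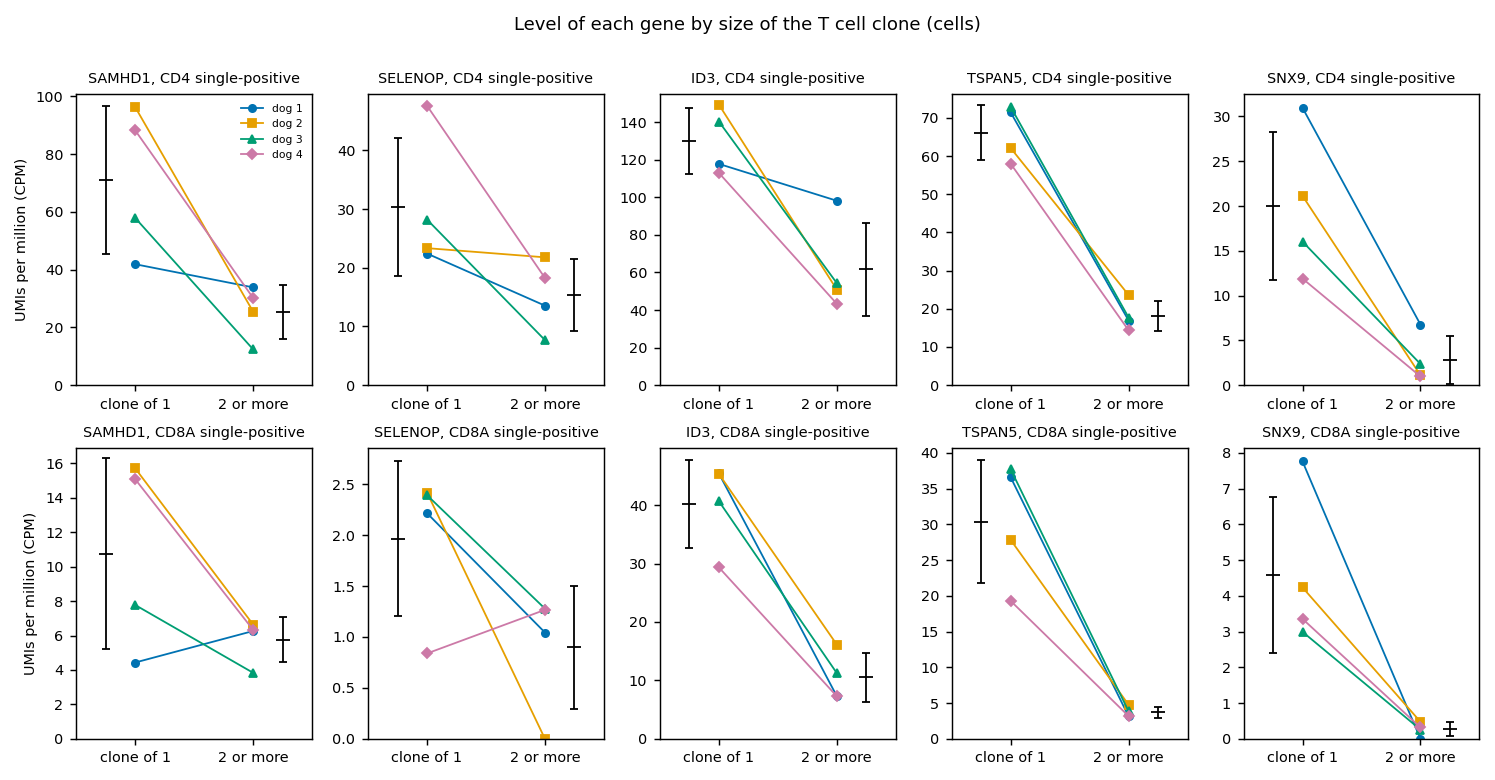
Levels of the 5 genes (CPM, axes from 0 and set per panel) in clones of 1 cell and of 2 or more cells among CD4 single-positive cells (top) and CD8A single-positive cells (bottom). Lines join the values of 1 dog, and black bars are mean ± SD of 4 dogs. Every line slopes down in CD4 cells, as do those of ID3, TSPAN5 and SNX9 in CD8A cells, while SAMHD1 of dog 1 and SELENOP of dog 4 slope up in CD8A cells.

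The lower level was present within CD4 cells that had no CCR7 UMI, where SAMHD1 (-1.46, adjusted p = 0.0135), ID3 (-1.25, 0.00656) and TSPAN5 (-1.70, 0.00105) passed the same edgeR test. Of the 8486 genes tested in those cells, 61 were called lower. SNX9 had 9 UMIs in expanded cells there and 202 in clones of 1. A cell that expresses CCR7 can have no CCR7 UMI at this depth, so this restriction does not remove all such cells. Of all 7943 CD4 cells with no CCR7 UMI, 3966 had a LEF1 UMI. Among cells with neither CCR7 nor LEF1, a restriction added after the data were seen, ID3 (-1.06, adjusted p = 0.00650) and TSPAN5 (-1.48, 0.00573) passed and SAMHD1 did not (-1.52, adjusted p = 0.0566 by edgeR), and SNX9 was below the filter on low counts. With that restriction 22 of the 7329 genes tested were called lower. By clone size in CD4 cells of dogs 2, 3 and 4, SAMHD1 was at 39.9, 12.9 and 57.7 CPM in clones of 2, at 23.2, 19.8 and 33.1 CPM in clones of 3 to 9 and at 18.8, 6.65 and 21.0 CPM in clones of 10 or more. TSPAN5 was at 21.6, 25.9 and 21.1 CPM in clones of 2, so most of its step was already present there. Dog 1 had 11 CD4 cells in clones of 3 or more and is left out of these values.

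CD8A cells fell into 215 to 388 cells per dog in clones of 1 and 227 to 1021 cells in clones of 2 or more. ID3 and TSPAN5 were lower in the expanded cells, SAMHD1 did not pass, and SELENOP (10 UMIs in expanded cells and 11 in clones of 1) and SNX9 (3 and 23 UMIs) were below the filter on low counts. Of the 8002 genes tested, 0.537% were called lower. TSPAN5 reached the filter in 4 dogs in clones of 1 and in 0 dogs in larger clones, so no count over the members tested is given. With no filter ID3, TSPAN5 and SNX9 passed, where 0.595% of 13103 genes were called lower. Without the filter TSPAN5 and SNX9 still rest on few UMIs in larger clones, so these passes are not set against that share. ID3 was at 45.4, 45.3, 40.7 and 29.3 CPM in clones of 1 and at 7.31, 16.1, 11.2 and 7.28 CPM in clones of 2 or more, with a log2 fold change of -1.95 (SE 0.24, 95% interval -2.48 to -1.42, adjusted p = 0.00342 by edgeR). TSPAN5 was at 36.6, 27.8, 37.7 and 19.3 CPM against 3.13, 4.74, 3.83 and 3.17 CPM, with a log2 fold change of -3.04 (SE 0.28, 95% interval -3.65 to -2.43, adjusted p = 0.000785 by edgeR). The expanded class held 38 TSPAN5 UMIs and clones of 1 held 165, and with no filter its adjusted p was 5.59e-06 by edgeR. ID3 was lower in 4 of 4 dogs (9.1% of the genes tested) with no overlap between the groups (2.44%). TSPAN5 was too, but it is not set against these shares because of how it reached the filter.

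SAMHD1 was at 4.43, 15.7, 7.78 and 15.1 CPM in CD8A clones of 1 and at 6.26, 6.64, 3.83 and 6.33 CPM in larger clones. It was lower in 3 of 4 dogs and higher in dog 1, and its log2 fold change was -1.03 (SE 0.35, 95% interval -1.80 to -0.26, adjusted p = 0.293 by edgeR). SNX9 was at 7.76, 4.23, 2.99 and 3.35 CPM against 0, 0.474, 0.256 and 0.317 CPM, lower in 4 of 4 dogs. With no filter on low counts its adjusted p was 0.00937 by edgeR and 0.0147 by DESeq2, from those 26 UMIs. ID3 and TSPAN5 passed in each alternative in which they were tested. TSPAN5 reached the filter only through clones of 1, and in cells with no CCR7 UMI ID3 reached it in 4 dogs in clones of 1 and in 1 dog in larger clones. These passes are therefore not counted as further support. In cells with neither CCR7 nor LEF1 no member was above the filter and 0 genes were called by edgeR (225 had an unadjusted p under 0.05). The dog as a block raised the number of genes called from 56 to 345 (2.41% of the genes tested lower and 1.9% higher), and leaving out dog 1, 2 or 3 left 19 to 22.

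The step between clone classes was tested for a difference between the lineages in 1 fit over 16 sums. The step of TSPAN5 was smaller in CD4 than in CD8A cells by 1.15 on the log2 scale (SE 0.34, 95% interval 0.45 to 1.86), which did not pass (adjusted p = 0.454 by edgeR, 0.0560 with the dog as a block). The difference was 0.63 for ID3 (95% interval -0.04 to 1.3, adjusted p = 0.812 by edgeR) and -0.50 for SAMHD1 (95% interval -1.65 to 0.66, adjusted p = 0.963 by edgeR). SELENOP and SNX9 were not compared, since they were below the filter in CD8A cells. Of 9018 genes tested, 2 passed (0.0222%), or 33 with the dog as a block, and 557 had an unadjusted p under 0.05. Those 2 genes, named here after their values were seen, were MXI1 (-1.90, adjusted p = 0.0249 by edgeR) and TRAT1 (-1.27, adjusted p = 0.0468 by edgeR).

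Cells with the rearrangement of TRAV9-11 to TRAJ28, which the study describes in CD8A cells resembling mucosal-associated invariant T cells, numbered 94 to 227 per dog among CD8A cells. ID3 was at 5.67, 12.9, 6.65 and 0 CPM in these cells and at 33.9, 34.8, 22.7 and 15.7 CPM in CD8A cells with another TRA, with no overlap (5.7% of the genes tested). Its log2 fold change was -1.86 (SE 0.48, 95% interval -2.91 to -0.81, adjusted p = 0.0488 by edgeR), and 1.99% of the 7275 genes tested were called lower. Neither its lack of overlap nor its call is set against these shares, because of how ID3 reached the filter on low counts (below). The call was lost without dog 1 (adjusted p = 0.192 by edgeR), dog 2 (0.101) or dog 3 (0.162), and with the dog as a block it was at 0.000303 and the number of genes called rose from 321 to 616. ID3 was the only member above the filter on low counts, which it reached in 4 dogs in cells with another TRA and in 1 dog in these cells (16 UMIs against 376). With no filter ID3 (adjusted p = 0.00699 by edgeR) and TSPAN5 (0.00518 by edgeR, 0.0130 by DESeq2) passed, where 2.01% of 13194 genes were called lower. Both rest on few UMIs in these cells (16 and 7), so neither pass is set against that share. TSPAN5 was at 2.66 to 3.78 CPM (7 UMIs) against 8.26 to 22.8 CPM, SAMHD1 at 1.89 to 9.66 CPM (11 UMIs) against 4.83 to 11 CPM, and SNX9 had 1 UMI against 30. No SELENOP UMI was found among the 635 cells, against 30 in CD8A cells with another TRA. That allows up to 3.99 to 8.59 CPM per dog, above the 1.67 to 2.17 CPM of the other CD8A cells. A difference was therefore not detectable within any 1 dog, and over the 4 dogs SELENOP did not pass with no filter.

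**Figure D5:**
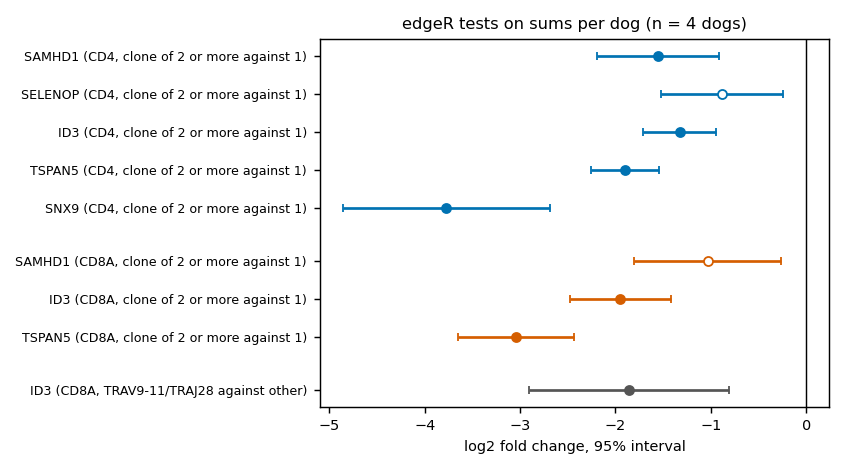
Log2 fold changes with 95% intervals from edgeR's quasi-likelihood test on sums per dog (n = 4 dogs) for the members above the filter on low counts. Filled circles passed an adjusted p of 0.05 over all genes tested, and open circles did not. SELENOP in CD4 cells and SAMHD1 in CD8A cells are open. SNX9 in CD4 cells, TSPAN5 in CD8A cells and ID3 in the TRAV9-11/TRAJ28 comparison reached the filter in 4 dogs only in the class where they are high.

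Genes that work with each member were read in the same clone comparison. Over all genes tested in CD4 cells, 2.83% were called lower and 2.92% higher, or 6.42% and 6.88% with the dog as a block. In CD8A cells 0.537% were called lower, or 2.41% lower and 1.9% higher with the dog as a block. Of 11 tested genes of deoxynucleotide metabolism, the pathway SAMHD1 opposes, 0 passed in CD4 cells (median log2 fold change -0.01, the same as over all genes) by edgeR, and 0 of 10 in CD8A cells, where the dog as a block called ADA. In cells with TRAV9-11/TRAJ28, where SAMHD1 was below the filter on low counts, 4 of 8 were lower. Of all 7275 genes tested there 1.99% were lower, and 176 were higher. Of 15 naive and memory genes 5 were lower and 1 higher there, and of 8 antiviral restriction factors 1 was lower and 1 higher. Of 12 selenium genes 2 were higher, of 12 tetraspanin genes 1 and of 16 endocytosis genes 1, with 0 lower. Of 4 ID and E protein genes 0 passed. Any link of these counts to SAMHD1 was not tested. Of 9 tested antiviral restriction factors, TRIM22 fell from 611 ± 143 to 332 ± 47.4 CPM (log2 fold change -0.94) and BST2, which tethers budding viruses, rose from 243 ± 87.5 to 449 ± 48.7 CPM (0.88) in CD4 cells. With the dog as a block 3 were lower and 1 higher. TRIM22 was lower in expanded CD8A cells too (-1.08), the only one of 8 tested.

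Of 18 tested selenoproteins and genes for making them, GPX1, a glutathione peroxidase, was higher in expanded CD4 cells (977 ± 136 against 1322 ± 42.0 CPM, log2 fold change 0.41), and with the dog as a block 2 were higher and 3 lower. Of 5 tested ID and E proteins and their partners, BACH2, a repressor that restrains effector differentiation, was lower (9.66 ± 5.08 against 2.78 ± 0.511 CPM, log2 fold change -2.01). Its level in larger clones was near the low-count cutoff of 2.46 CPM, so the size of this change is uncertain. Of 15 tested genes of a list of tetraspanins, their partner proteases and NOTCH1, 6 were higher in expanded CD4 cells and 0 lower (2.92% of all genes tested were called higher), with a median log2 fold change of 0.40 against -0.01 over all genes. They included CD9 (2.09), TSPAN13 (1.97) and TSPAN31 (0.83), and ADAM10, singled out after its value was seen because TSPAN5 partners it, was at 29.9 ± 0.814 CPM in clones of 1 and 48.2 ± 9.17 CPM in larger clones (0.70, adjusted p = 0.00911 by edgeR). With the dog as a block 9 were higher and 1 lower. Of 17 genes of endocytosis linked to SNX9, ACTR3, a subunit of the actin-nucleating Arp2/3 complex, was higher (228 ± 11 against 331 ± 14.2 CPM, 0.51), and 3 were higher with the dog as a block. In expanded CD8A cells no gene of the ID, selenium, tetraspanin or endocytosis lists passed by edgeR (0 of 4, 14, 14 and 17), against 862 genes with an unadjusted p under 0.05 in the whole comparison.

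Genes of naive and memory T cells were read too, beside the same shares over all genes tested. In CD4 cells 6 of 17 tested were lower in expanded clones and 1 higher, and among them were LEF1 (447 ± 165 against 134 ± 47.1 CPM, log2 fold change -1.85) and CCR7, which went from 207 ± 51.2 to 62.8 ± 11.6 CPM (-1.70). BACH2 (-2.01), near the low-count cutoff in larger clones, is also on this list. With the dog as a block 9 were lower and 5 higher. In CD8A cells CCR7 (-2.83) and LEF1 (-2.36) were lower, 2 of 15, or 5 lower and 1 higher with the dog as a block. The part of these genes in the members' levels was not tested. The CCR7 and LEF1 restrictions above are no test of it, since cells that express either gene can have no UMI of it.

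Markers of other blood cells were read in the same sums. Of the monocyte list, CSF1R, CD163, S100A12, VCAN and FCGR1A were at 0 in all CD4 clone sums, LYZ and CD68 were at no more than 3.39 CPM, and S100A8 was at 1197 to 2506 CPM in clones of 1 and 3121 to 3569 CPM in larger clones (log2 fold change 0.73, adjusted p = 0.0310 by edgeR). Of the B cell list, PAX5 and CD22 were at 0 and MS4A1 and CD79B at no more than 10.2 CPM, while CD79A was at 8059 to 10539 CPM in all CD4 clone sums. No erythroid marker had a UMI there, and platelet and dendritic markers stayed at or below 6.5 CPM per gene. In CD8A clone sums S100A8 was at 1095 to 2059 CPM in clones of 1 and 629 to 1850 CPM in larger clones, CD79A at 8592 to 10885 CPM, and IL3RA at no more than 21.3 CPM. Expanded CD4 cells had a median of 4110.5 to 4853.5 UMIs and CD4 clones of 1 a median of 3881.5 to 4019.5. The part of S100A8 and of this depth in the members' change was not tested.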

How the data were processed

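One 5′ gene expression library and one V(D)J library per dog, from sorted blood T cells of 4 dogs, were used. The authors excluded dead cells and doublets in the sort, and they made the counts with Cell Ranger 5.0.1 on a CanFam 3.1 annotation. The deposited matrices hold raw UMI counts per gene and barcode. Of 33125 barcodes, 31909 with 500 to 20000 UMIs and at most 10% mitochondrial UMIs were kept, the same filters as in the study's methods, and no doublet caller was run. The highest levels allowed where no UMI was found cover counting error only. The intervals of the log2 fold changes come from edgeR's quasi-likelihood test on sums per dog and are not limited to counting error.

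Levels are CPM of UMIs summed per dog and class, and log2 differences used a pseudocount of 1 CPM. Classes need at least 1 UMI of the named gene. Likeness between genes is Pearson's r of log2(CPM + 10), centred within each dog, among genes with a mean of at least 20 CPM. Clone classes used cells with exactly 1 TRA and 1 TRB. Sums per dog were tested with edgeR 4.0.16 (TMM, filterByExpr, quasi-likelihood, Benjamini-Hochberg over all genes tested, threshold 0.05) in R 4.3.3, and DESeq2 1.42.0 was an alternative, as were edgeR's RLE size factors, no low-count filter, all barcodes, other clone definitions, restricted cells, a block and leaving out each dog. On simulated counts the test recovered 54.4% to 62.3% of genes changed 2-fold and 98% to 100% of those changed 4-fold. The simulation used 1 fixed spread for all genes and no difference between dogs, and it changed only genes above a minimum UMI count. It therefore does not give the share of real changes found among these dogs or for the members. Classes of the same number come from the same dog. Their deviations from the class means correlated at 0.190 to 0.427 in all 12 pairs, so the numbers pair the classes. The main edgeR fit had no term for the dog and left this pairing out. Only the alternative with the dog as a block used it.

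The 5 genes and all gene lists were chosen with earlier results of these data known. Besides the 5 genes, the text names the 3 genes most like each one, and from each list up to 3 genes with the largest fold change past the threshold in either clone comparison. No sequences or coordinates are given, and a genome of this build was not used here. Some genes that the lists hold are not reported here.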

Additional observations from a re-analysis of the deposited data

Results flagged for a closer look

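Among 78 groups of 4 dogs examined, 4 had 1 dog whose gap to the nearest other dog exceeded Dixon's 95% critical value as a share of the group's range. Chance gives about 1 such group in 20, which is about the share flagged here. SELENOP in CD4 single-positive cells was at 32.4 CPM in dog 4 against 20.5 to 21.5 CPM in the other dogs, and in the CD4 cells without FOXP3, which are nearly the same cells, it was at 32.8 CPM in dog 4. SNX9 in CD4 cells without CCR7 was at 32.2 CPM in dog 1 against 6.60 to 10.1 CPM in the other dogs. SAMHD1 in CD8A clones of 2 or more was at 3.83 CPM in dog 3 against 6.26 to 6.64 CPM in the other dogs. With a share this near to chance, no difference between dogs is read from these values, and no cause was tested.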

How the results depend on the processing

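Of 159 alternative fold changes of the members, 149 kept their direction and their side of the threshold, 8 no longer passed (7 of them without 1 dog), 1 newly passed and 1 reversed. The reversed one was the ID3 difference between lineages, at -0.19 in cells with neither CCR7 nor LEF1. The fit with the dog as a block called 1220 genes in CD4 clones, 345 in CD8A clones, 33 for the difference between lineages and 616 for TRAV9-11/TRAJ28, and of the members' calls only that of SELENOP in CD4 cells changed. DESeq2 called 115 genes in CD8A clones and 7 for the difference between lineages, and no low-count filter gave 124, 5 and, for TRAV9-11/TRAJ28, 491. Clones by TRB alone gave 88 in CD8A cells and 1 for the difference between lineages. Cells without CCR7 gave 118 in CD4 cells, 6 in CD8A cells and 0 for the difference between lineages (417 with an unadjusted edgeR p under 0.05). Both of the next alternatives were added after seeing the data. Cells with neither CCR7 nor LEF1 gave 31, 0 and 0 (337 at that p for the last), and leaving out the largest clone of each dog gave 0 for the difference between lineages (521). Leaving out 1 dog gave 9 to 475 genes in CD4 clones, 19 to 42 in CD8A clones, 0 to 1 for the difference between lineages (369 to 571) and 123 to 258 for TRAV9-11/TRAJ28, with 123 without dog 2. The cause of these changes was not tested. Of 240 alternative ratios between expression classes, 221 moved by less than 1 SD, 19 moved further (classes cut at 2 UMIs or cells thinned to 2000 UMIs) and 0 reversed. SELENOP and SNX9 in CD8A cells were limited by depth, at 50 and 42 UMIs in all.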

Other observations

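SNX9 in CD4 cells was highest in the youngest dog (33.3 CPM at 5 years) and lowest in the oldest (7.67 CPM at 9 years), with 14.6 and 13.9 CPM at 7 years. TSPAN5 in CD4 cells was at 70.8 CPM in the former and 35.6 CPM in the latter, and ID3 at 123 and 80.7 CPM, whereas SELENOP was at 21.5 and 32.4 CPM. Age, sex and the animal cannot be told apart with 4 dogs, of which the youngest was the only female, and no test was run.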
